A study of Mus musculus with 6 samples.

Results

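The chaperones and foldases of the endoplasmic reticulum (ER) are described here through 10 genes. They are Hspa5, Hsp90b1, Pdia3, Pdia4, Pdia6, Calr, Dnajb9, Sdf2l1, Creld2 and Manf. The choice was made by symbol, among genes whose proteins fold newly made secretory proteins in the ER lumen or assist in this. It is not the full set, and other abundant genes such as P4hb and Canx are in the further lists below. All 10 were found among the 40803 genes of the count table, and all 10 passed a filter on low counts that left 16327 genes. The genes come from RNA-seq of whole liver of male C57BL/6J mice injected through the tail vein at about 6 weeks with 100 µL of rAAV8, an adeno-associated virus vector that infects hepatocytes, and examined 4 weeks later under normal feeding. The rAAV8-Hnf1aos1 group (knockdown, n = 3) received a virus whose U6 promoter drives a short hairpin RNA against the long non-coding RNA Hnf1aos1, and the rAAV8-Scramble group (scramble, n = 3) received the same vector with a scrambled hairpin. Both groups therefore carry virus, hairpin and an EGFP reporter, the comparison holds no uninjected group, and the U6 promoter is not restricted to a cell type. Replicates are numbered 1 to 3 in each group.

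Secretory proteins enter the ER unfolded through the translocon, and hepatocytes, which make most plasma proteins, load this route heavily. In the lumen, Hsp70 and Hsp90 type chaperones hold unfolded chains, lectin chaperones hold glycoproteins, and protein disulfide isomerases form and reshuffle disulfide bonds. When unfolded protein builds up, the sensors IRE1, PERK and ATF6 start the unfolded protein response, in which ATF6 and the spliced form of XBP1 raise transcription of these same genes, in part through the ER stress response element (ERSE) near their start sites.

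In liver after knockdown, Creld2 and Hsp90b1 rose, and the fitted change of all 10 genes was above 0. Creld2 rose by 83.0% and Hsp90b1 by 42.0%, and the median log2 fold change (knockdown over scramble) of the 10 was 0.41, against −0.00040 over all genes tested. The other 8 had log2 fold changes of 0.10 to 0.52 and did not pass the test. A gene is called here when its adjusted p is under 0.05 in the quasi-likelihood test of edgeR, adjusted by Benjamini-Hochberg over the 16327 genes. By this rule 2 of the 10 were called, while 6.32% of all genes were called in either direction and 3.09% were called higher. In 7 of the 10 every knockdown library lay above every scramble library, which held for 15.2% of all genes, and an unadjusted p under 0.05 with a higher knockdown level was found for 9 of 10 genes and for 12.0% of all genes. A log2 fold change above 0 was found for 49.9% of all genes. In whole liver, a change in the number of cells of a type and a change in RNA per cell cannot be told apart.

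The sequences below show the ERSE, spelled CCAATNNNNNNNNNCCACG. In it 9 bases of any kind separate CCAAT, the site of NF-Y, from CCACG, the part contacted by ATF6. As said above, the element is already known near the start sites of such genes, so its matches here are a description only. It was searched on both strands of the RefSeq promoter windows (GRCm38.p6, 250 bases before to 50 after the start site), which matched 9 of the 10 symbols, all but Manf. Each exact match is printed with 10 bases on either side, turned so that it reads from CCAAT to CCACG, with the element in capitals.
Hspa5: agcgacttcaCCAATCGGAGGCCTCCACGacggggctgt
Hsp90b1 distal: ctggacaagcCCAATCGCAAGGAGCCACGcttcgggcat
Hsp90b1 proximal: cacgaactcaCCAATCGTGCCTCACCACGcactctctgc
Pdia6: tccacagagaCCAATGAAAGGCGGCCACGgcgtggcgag
Calr: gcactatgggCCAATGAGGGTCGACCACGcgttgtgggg
Creld2: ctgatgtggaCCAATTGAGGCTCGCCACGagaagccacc
An exact element stood in 5 of the 9 windows, those of Hspa5, Hsp90b1, Pdia6, Calr and Creld2, and Hsp90b1 held it at 2 places. Over all 32851 windows in the table, 0.119% (39 windows, of 37 genes) held it. The windows of Pdia3, Pdia4, Dnajb9 and Sdf2l1 did not contain these letters. Its shorter parts are common in promoters: CCAAT stood in 37.4% and CCACG in 32.8% of all windows, and each ERSE match contains both. The related element ERSE-II, spelled ATTGGNCCACG, stood in 0.0365% of all windows and in 0 of the 9.

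The elements lay at chr2:34772015-34772053 (+ strand) for Hspa5, chr10:86705628-86705666 (− strand) and chr10:86705523-86705561 (+ strand) for Hsp90b1, chr12:17266481-17266519 (+ strand) for Pdia6, chr8:84847065-84847103 (+ strand) for Calr and chr15:88819510-88819548 (− strand) for Creld2, each range including the 10 flanking bases. In the orientation of the gene, the matches began 65 bases before the start site in Hspa5, 212 and 107 in Hsp90b1, 98 in Pdia6, 162 in Calr and 126 in Creld2. The 250 bases before the start are given for the 2 genes that were called and for Hspa5, on the gene's own strand and with each ERSE match in capitals, so that a match on the other strand appears as its reverse complement. The ranges are chr2:34771840-34772089 (+ strand) for Hspa5, chr10:86705445-86705694 (− strand) for Hsp90b1 and chr15:88819396-88819645 (+ strand) for Creld2.
Hspa5 upstream: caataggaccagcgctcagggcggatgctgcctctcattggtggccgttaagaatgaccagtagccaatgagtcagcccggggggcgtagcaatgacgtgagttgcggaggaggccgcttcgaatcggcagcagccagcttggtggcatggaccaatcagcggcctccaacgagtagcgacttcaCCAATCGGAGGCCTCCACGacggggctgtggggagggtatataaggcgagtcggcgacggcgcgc
Hsp90b1 upstream: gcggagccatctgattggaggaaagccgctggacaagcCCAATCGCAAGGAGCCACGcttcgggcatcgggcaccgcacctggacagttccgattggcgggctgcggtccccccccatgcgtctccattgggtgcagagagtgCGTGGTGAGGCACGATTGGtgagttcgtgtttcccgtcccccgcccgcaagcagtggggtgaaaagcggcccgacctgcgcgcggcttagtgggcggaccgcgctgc
Creld2 upstream: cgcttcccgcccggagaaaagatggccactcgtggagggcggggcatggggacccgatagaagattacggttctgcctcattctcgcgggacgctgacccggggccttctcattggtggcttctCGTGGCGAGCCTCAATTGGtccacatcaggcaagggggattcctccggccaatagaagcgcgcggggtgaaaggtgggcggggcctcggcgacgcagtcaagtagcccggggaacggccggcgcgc
The Hspa5 stretch has its match close to the start site. In Hsp90b1 one match reads forward and the other, nearer the start, reads in reverse. In Creld2 the match reads in reverse.

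**Figure D1:**
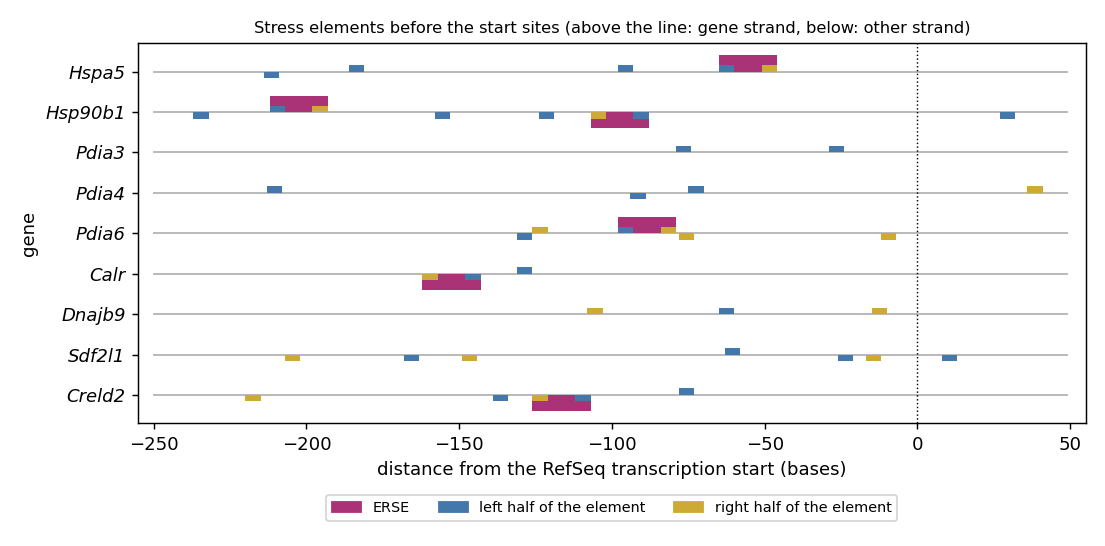
Exact ERSE matches (tall boxes) and single parts of the element (short boxes) in the RefSeq promoter windows of 9 genes, by distance from the start site in bases; boxes above a line are on the gene's strand and boxes below it on the other. Hspa5, Hsp90b1, Pdia6, Calr and Creld2 have an ERSE, at 65 to 212 bases before the start.

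The counts of mouse genes per library were 14704746 to 16532510 for the scramble and 18021614 to 19462398 for the knockdown group, and spike-in RNA took 1.38 to 1.52% and 1.18 to 1.24% of the counts. Values are given as normalized counts, counts scaled by TMM to the mean library size. Hnf1aos1 itself had 491 to 620.3 normalized counts in the scramble and 258 to 433 in the knockdown libraries, a log2 fold change of −0.74 with a standard error of 0.195 and an edgeR adjusted p of 0.0625, so the target was lower in every knockdown library but not called. It is an antisense gene, so its level is uncertain where reads of both strands were counted together. All 6 hepatocyte markers listed passed the filter, with 0 called by edgeR, 1 at an unadjusted p under 0.05, and 1 called by DESeq2.

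**Figure D2:**
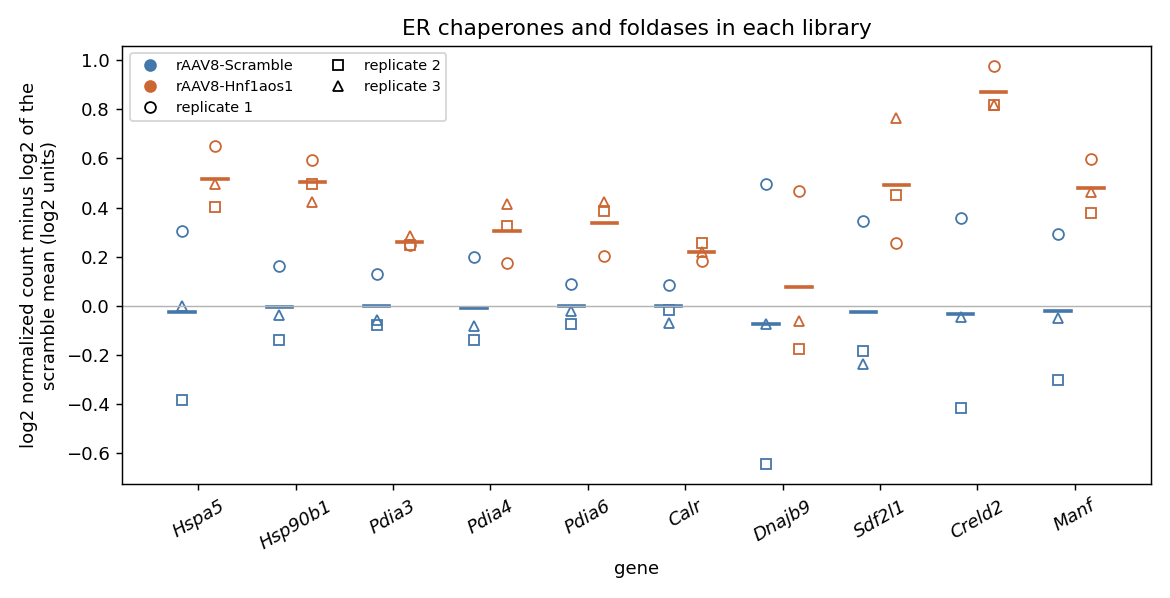
Normalized count of each gene in each library, as log2 minus log2 of the gene's scramble mean (log2 units); symbols are replicates and bars the mean of the 3 log2 values of a group. The groups are separate in 7 genes and overlap in Pdia4, Dnajb9 and Sdf2l1, and scramble replicate 1 is the highest scramble library in all 10.

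Hspa5 (chr2:34771970-34777547, + strand, GRCm38, like all gene positions here) encodes BiP, the Hsp70 chaperone of the lumen, which also holds the stress sensors inactive. The scramble values (normalized counts, replicates 1 to 3) were 15229.8, 9445 and 12304, and the knockdown values were 19363, 16285 and 17365. The groups did not overlap, and scramble replicate 1 was the nearest to the knockdown values. The means were 12326 ± 2892 and 17671 ± 1561 (SD, n = 3 each), a log2 fold change of 0.52 with a standard error of 0.159 and an edgeR adjusted p of 0.0804. Hspa5 was not called by edgeR, and DESeq2 called it (adjusted p = 0.0161 from DESeq2).

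Hsp90b1 (chr10:86690209-86705509, − strand) encodes GRP94, the Hsp90 chaperone of the lumen, which matures a smaller set of clients including integrins and Toll-like receptors. In normalized counts, replicates 1 to 3 stood at 17511, 14190.3 and 15258 with the scramble hairpin and at 23631, 22084 and 20988 after knockdown. Every knockdown library was above every scramble library. The mean rose from 15653 ± 1695 to 22235 ± 1328 (SD, n = 3 each), a log2 fold change of 0.51 with a standard error of 0.112 and an edgeR adjusted p of 0.0270. A pseudogene on the other strand, 1810014B01Rik, shares 10.3% of the exon bases of Hsp90b1 and had a mean of 25 counts, against 19177 for Hsp90b1.

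Dnajb9 (chr12:44205559-44210326, − strand) encodes ERdj4, a J protein that stimulates the ATPase of BiP and represses IRE1. Scramble replicates 1, 2 and 3 had 1931, 875 and 1302 normalized counts, and knockdown replicates 1, 2 and 3 had 1895, 1211 and 1313. In this gene the replicate 1 libraries of both groups were high, and the highest value of all was a scramble library. edgeR put the log2 fold change at 0.10 ± 0.344 (standard error) with an adjusted p of 0.893, and its standard error was the largest of the 10. The sign of this estimate depended on single libraries, being −0.14 without scramble replicate 2 and −0.13 without knockdown replicate 1.

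Sdf2l1 (chr16:17130138-17132383, − strand) encodes a small lumenal protein that works with J proteins in the BiP cycle. The scramble values (normalized counts, replicates 1 to 3) were 534, 369.9 and 356, and the knockdown values were 502, 574 and 713. Scramble replicate 1 stood above knockdown replicate 1, so the groups overlapped. The estimate was a log2 fold change of 0.50 ± 0.181 (standard error) with an adjusted p of 0.137 by edgeR, close in size to those of Hspa5 and Hsp90b1 but with a wider error. Without scramble replicate 1 it was 0.72 and was called (adjusted p = 0.0311 from edgeR).

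The 3 protein disulfide isomerases had log2 fold changes of 0.26 to 0.34 and did not pass the test. Pdia3 (chr2:121413775-121438687, + strand) encodes ERp57, which joins calreticulin and calnexin to oxidize glycoproteins. In normalized counts, replicates 1 to 3 stood at 7609.8, 6603 and 6685 with the scramble hairpin and at 8278, 8266 and 8476 after knockdown. The 3 knockdown values were nearly equal (CV 1.41%) and all above the scramble values. On the log2 scale the fold change was 0.26 ± 0.0969 (standard error) with an adjusted p of 0.133 by edgeR.

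Pdia4 (chr6:47796141-47813430, − strand) encodes ERp72, an isomerase with an additional thioredoxin-like domain. Scramble replicates 1, 2 and 3 had 7258, 5743 and 5961 normalized counts, and knockdown replicates 1, 2 and 3 had 7122, 7926 and 8436. Scramble replicate 1 was just above knockdown replicate 1, and the groups overlapped by these 2 libraries alone. edgeR put the log2 fold change at 0.31 ± 0.116 (standard error) with an adjusted p of 0.136.

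Pdia6 (chr12:17266545-17284770, + strand) encodes P5, an isomerase that binds BiP and also acts on activated IRE1. The scramble values (normalized counts, replicates 1 to 3) were 2857, 2551 and 2644, and the knockdown values were 3093, 3507 and 3594. The groups did not overlap, and here knockdown replicate 1 was the lowest of its group. This was a log2 fold change of 0.34 ± 0.0956 (standard error) with an adjusted p of 0.0586 by edgeR, and DESeq2 called it (adjusted p = 0.0394 from DESeq2).

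Calr (chr8:84841850-84846934, − strand) encodes calreticulin, the soluble lectin chaperone, which also buffers calcium. In normalized counts, replicates 1 to 3 stood at 13990.4, 13049 and 12562 with the scramble hairpin and at 14968, 15761 and 15383 after knockdown. The groups did not overlap, with scramble replicate 1 again the highest of its group. On the log2 scale the fold change was 0.22 ± 0.0970 (standard error) with an adjusted p of 0.199 by edgeR.

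Creld2 (chr15:88819646-88826683, + strand) encodes a stress-induced ER protein with EGF-like domains that can also be secreted. Scramble replicates 1, 2 and 3 had 788, 459.9 and 596 normalized counts, and knockdown replicates 1, 2 and 3 had 1210.2, 1084 and 1083. All 3 knockdown libraries lay above the highest scramble library, and they varied less (CV 6.48%) than the scramble libraries (CV 26.8%). The mean rose from 615 ± 165 to 1126 ± 73.0 (SD, n = 3 each), a log2 fold change of 0.87 with a standard error of 0.172 and an edgeR adjusted p of 0.0262. This was the largest fold change of the 10.

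Manf (chr9:106838312-106891979, − strand) encodes a small secreted protein that binds BiP and slows its nucleotide exchange. The scramble values (normalized counts, replicates 1 to 3) were 2276, 1508 and 1794, and the knockdown values were 2816, 2415 and 2562. The groups did not overlap in normalized counts, and scramble replicate 1 was the nearest to the knockdown values. edgeR put the log2 fold change at 0.48 ± 0.138 (standard error) with an adjusted p of 0.0662, and DESeq2 called it (adjusted p = 0.0223 from DESeq2). On the opposite strand, Dcaf1 shares 4.14% of the exon bases of Manf and had a mean of 803 counts, against 2258 for Manf, so reads in that stretch are uncertain if strands were not separated.

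An exact two-sided permutation test over the libraries, which for 3 against 3 cannot go below p = 0.1, gave that value for the 7 genes whose groups did not overlap. It gave p = 0.2 for Pdia4 and for Sdf2l1 and p = 0.9 for Dnajb9, by the same exact permutation test. Within the scramble group, replicate 1 was the highest library in 10 of 10 genes and replicate 2 the lowest in 8. In the knockdown group the highest library was replicate 1 in 5 genes and replicate 3 in 4. The highest scramble library exceeded the lowest by 11.4% in Calr and by 121% in Dnajb9, and the CV was larger in the scramble than in the knockdown group in 9 of the 10. The 10 genes were correlated over the libraries, so these counts are not independent. Shares of all genes with such orders are not given, so these orders may not be particular to the 10.

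The calls depended on single libraries. Without scramble replicate 1 edgeR called 5 of the 10 (Creld2, Hsp90b1, Hspa5, Manf and Sdf2l1), where 1.59% of all genes were called higher. Without scramble replicate 2 it called Creld2 alone (1.01% of all genes higher), and without knockdown replicate 1 it called Pdia6 alone (1.75%). Without scramble replicate 3 edgeR called 0 of the 10, where 0.228% of all genes were called higher, and 5 had an unadjusted p under 0.05 with a higher knockdown level, as did 7.77% of all genes. Creld2 then had a log2 fold change of 0.84 with an adjusted p of 0.134 from edgeR. Without knockdown replicate 2 edgeR again called 0, where 0.836% of all genes were called higher, and 7 had such an unadjusted p, as did 9.16% of all genes. Without knockdown replicate 3 it called Creld2 and Hsp90b1 (6.06% of all genes higher). Over these 6 fits the log2 fold change of Creld2 lay between 0.70 and 1.10 and that of Hsp90b1 between 0.44 and 0.60.

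With all 6 libraries, DESeq2 called 5 of the 10 (Creld2, Hsp90b1, Hspa5, Manf and Pdia6), where 3.88% of all genes were called higher. With library sizes taken from the spike-in RNA, the median over all genes shifted to 0.20 on the log2 scale and that over the 10 to 0.62, and 9 of the 10 were called, all but Dnajb9, where 18.6% of all genes were called higher.

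**Figure D3:**
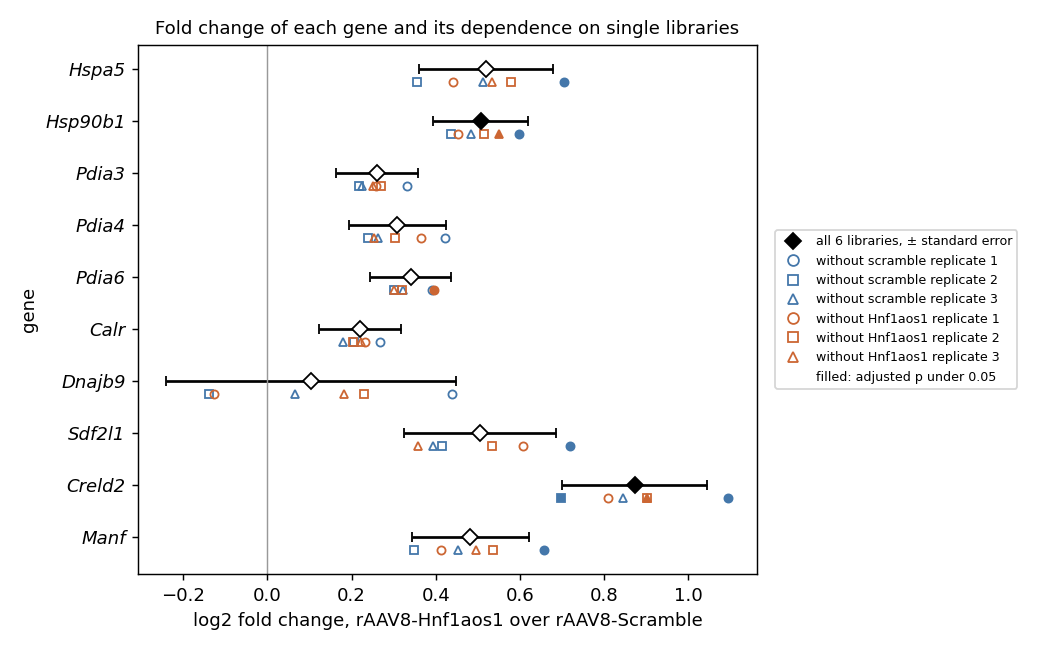
Log2 fold change (knockdown over scramble) of each gene from all 6 libraries with its standard error (diamonds) and with each library left out in turn (small symbols); filled symbols have an adjusted p under 0.05. Creld2 is called in 3 and Hsp90b1 in 2 of the 6 smaller fits, and only Dnajb9 crosses 0.

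Levels between genes are compared on the TPM scale (a unit of transcript abundance that divides counts by gene length), taken from the deposited table. In the scramble group Calr stood highest with 885 ± 38 TPM, ahead of Hsp90b1 with 739 ± 81.2 and Hspa5 with 615 ± 146 (SD, n = 3). A middle tier held Pdia3 (343 ± 26.4), Pdia4 (310.1 ± 38.9) and Manf (279 ± 58.2), followed by Pdia6 (163 ± 10.3). Dnajb9 (95.8 ± 36.9), Creld2 (58.8 ± 15.7) and Sdf2l1 (49.3 ± 11.1) were lowest. The SDs overlapped between neighbours in this order for Hsp90b1 and Hspa5, for Pdia3, Pdia4 and Manf, and for Dnajb9, Creld2 and Sdf2l1.

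In the knockdown group Hsp90b1 had the highest mean level, 997 ± 90.9 TPM, with Calr at 977 ± 12.9, a pair whose spreads overlapped. Creld2, at 102 ± 10.2 TPM, stood level with Dnajb9 at 98.2 ± 28.2. The 10 genes together summed to 3999.5, 3085 and 3531 TPM in scramble replicates 1 to 3 and to 4689, 4206 and 4298 TPM in knockdown replicates 1 to 3. The knockdown sums were all above the scramble sums, and on this scale 6 of the 10 genes showed no overlap, against 9.10% of all genes tested, the groups of Manf overlapping in TPM.

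**Figure D4:**
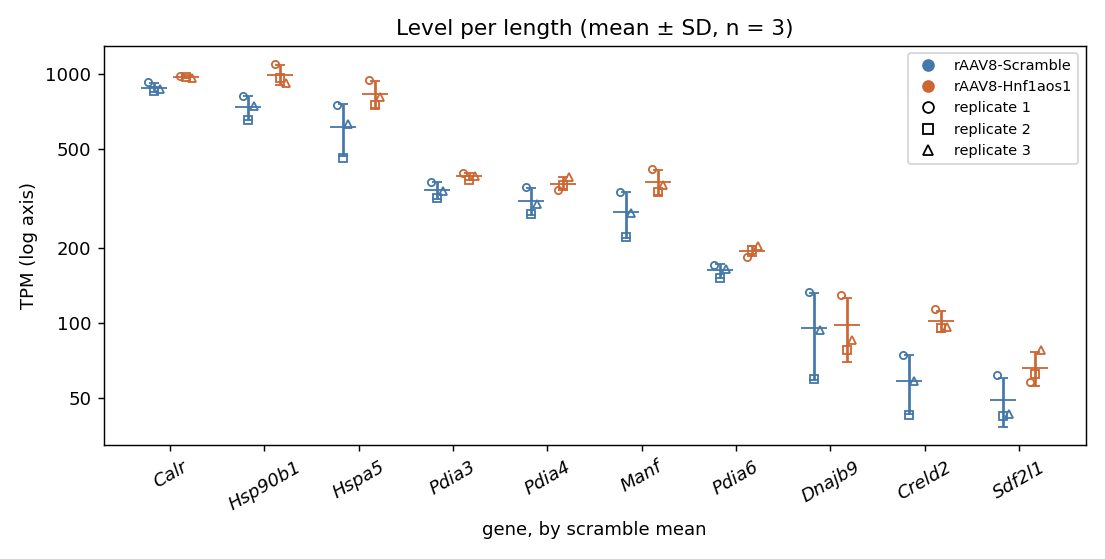
TPM of the 10 genes on a log axis, ordered by scramble mean, with the mean and SD of each group (n = 3) and each library as a symbol. Calr, Hsp90b1 and Hspa5 lie at 460.4 TPM or more in every library, and Creld2 and Sdf2l1 at 114 or less.

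The other genes of the folding route were read from lists, whose members were counted against the same backgrounds (3.09% of all genes called higher, 15.2% without overlap). Of 8 partners of BiP and related Hsp70 proteins, 3 rose, all 8 were above 0 and the median log2 fold change was 0.30. Hyou1, the large Hsp70 that exchanges nucleotides on BiP, rose by 0.55 on the log2 scale (standard error 0.113, adjusted p = 0.0196 from edgeR). The reductase-type J protein gene Dnajc10 rose by 0.51 (adjusted p = 0.0294 from edgeR) and Dnajc3, which encodes the J protein P58IPK, by 0.40 (adjusted p = 0.0411 from edgeR). In all 3 the groups did not overlap.

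Among 12 further isomerases of the PDI family that were tested (of 13 listed), edgeR, DESeq2 and limma's voom called 0, 3 had an unadjusted p under 0.05, and the median was 0.17. Pdia5 had the smallest p of them (0.30, adjusted p = 0.0684 from edgeR). P4hb, at a mean of 816 TPM in the scramble group, had 0.12 (adjusted p = 0.470 from edgeR). Of all genes, 23.4% had an unadjusted edgeR p under 0.0497 in either direction, the background for such counts in the lists. The lectin cycle that works beside calreticulin likewise had 0 of 9 called by these 3 tools, 3 at an unadjusted p under 0.05 and a median of 0.17, with Uggt1, the sensor of misfolded glycoproteins, at 0.29 (adjusted p = 0.0683 from edgeR). Of 6 thiol oxidases and peroxidases tested, 1 rose and the median was 0.10. It was Qsox1, a sulfhydryl oxidase found mainly in the Golgi and outside the cell, at 0.59 (standard error 0.105, adjusted p = 0.0111 from edgeR).

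Of 9 prolyl isomerases and collagen chaperones 1 rose, and the median of the list was −0.09, or 0.11 with the spike-in scaling. It was Fkbp11, an ER prolyl isomerase of secretory cells, with 52.3, 51.6 and 46.2 normalized counts in scramble replicates 1 to 3 and 158, 118 and 133 in knockdown replicates 1 to 3. The lowest knockdown library was above the highest scramble library by more than the spread of either group, and edgeR gave a log2 fold change of 1.44 with standard error 0.182 and an adjusted p of 0.00256. This fold change exceeded that of each of the 10 genes.

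Of 17 genes of ER-associated degradation, which returns misfolded proteins to the cytosol, 2 rose, 13 were above 0 and the median was 0.18. They were Derl1, a subunit of the export channel, at 0.41 (adjusted p = 0.0306 from edgeR) and Edem2, a mannosidase that marks misfolded glycoproteins, at 0.43 (adjusted p = 0.0460 from edgeR). With a library left out, Derl1 kept its call in 1 and Edem2 in 0 of the 6 fits, and neither was called with library totals. The lowest value of this list was that of Herpud1, −0.78 (adjusted p = 0.291 from edgeR). Its groups overlapped in normalized counts, and in TPM every knockdown library was lower. Of 14 genes of the translocon and signal peptidase 2 rose, all 14 were above 0 and the median was 0.23. Sec61g, a subunit of the translocon channel, rose by 0.63 (adjusted p = 0.0175 from edgeR) and Spcs2, of the signal peptidase, by 0.44 (adjusted p = 0.0365 from edgeR). Of 14 KDEL receptor and ER to Golgi genes 3 rose, Tmed9 (0.43) and the genes of the vesicle coat subunits Sec24d (0.38) and Sec23b (0.56), with a median of 0.25. Over these 8 lists together, 12 of 89 genes tested were called higher by edgeR (13.5%), and the median was 0.18. Every knockdown library lay above every scramble library in 4 of 8 Hsp70 partners, 4 of 12 isomerases and 1 of 6 oxidases. The same held for 5 of 9 lectin cycle genes, 2 of 9 prolyl isomerases and 6 of 17 degradation genes. It also held for 9 of 14 translocon and 11 of 14 ER to Golgi genes, against 7 of the 10 genes. In 2 prolyl isomerases (Ppic and Fkbp7) and 1 ER to Golgi gene (Kdelr3) every knockdown library was lower. Their counts were low, with scramble means of 29.7, 47.6 and 12.9 normalized counts. The share of all genes with this lower pattern is not given.

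Of 14 sensors and transcription factors of the unfolded protein response 2 rose, 8 were above 0 and the median was 0.12. Xbp1, the transcription factor whose mRNA IRE1 splices, had 2792, 2377 and 2371 normalized counts in scramble replicates 1 to 3 and 4552, 4935 and 4048 in knockdown replicates 1 to 3. The groups lay far apart, and the log2 fold change came to 0.84 ± 0.108 (standard error) with an adjusted p of 0.00272 by edgeR. Gene counts do not separate its spliced and unspliced forms. Atf4, the transcription factor of the PERK branch, rose by 0.53 (standard error 0.132, adjusted p = 0.0419 from edgeR), with 1737 normalized counts in knockdown replicate 1 and 1200.2 and 1262 in replicates 2 and 3. The genes of this list below 0 were Atf3 (−0.41), Trib3 (−0.33), Ddit3 (−0.27), Ppp1r15a (−0.25), Creb3l3 (−0.09) and Atf6 (−0.09). None of them was called, and their groups overlapped in normalized counts. In TPM every knockdown library was lower for Atf6 and Ppp1r15a.

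Chaperones of other compartments gave a mixed picture. In the cytosol 1 of 18 rose and 2 fell, with a median of 0.19. An unadjusted edgeR p under 0.05 in either direction was found for 11 of the 18, and 23.4% of all genes had one under 0.0497. The values ran from −1.15 (Hspa1a) to 1.52 (Hspb1), and neither of these genes was called, though the groups overlapped in neither. Without overlap, 6 of the 18 were higher after knockdown (15.2% of all genes) and 3 were lower (share of all genes not given). Hsp90aa1, the inducible cytosolic Hsp90, rose by 0.79 (adjusted p = 0.0493 from edgeR). The J protein gene Dnajb4 fell by 0.42 (adjusted p = 0.0294 from edgeR). The Hsp70 co-chaperone gene Bag3 fell by 0.44 (adjusted p = 0.0452 from edgeR). In mitochondria 2 of 9 rose, the chaperonin pair Hspe1 (0.69, adjusted p = 0.0111 from edgeR) and Hspd1 (0.53, adjusted p = 0.0200 from edgeR), and the median was 0.07. The spike-in scaling shifted the median of all genes to 0.20. With it the 3 called cytosolic and 2 called mitochondrial genes kept these directions, but Dnajb4 and Bag3 lost their calls. Of the 19 genes called over all these lists, Fkbp11 and Xbp1 kept their call in all 6 fits with a library left out, and they were the only 2 still called without scramble replicate 3. Of the other 17, Hspe1 kept it in 5 of these fits, Hspd1 and Qsox1 in 4, Hyou1 and Sec61g in 3, and Atf4, Dnajc10, Sec23b, Spcs2 and Tmed9 in 2. Bag3, Derl1, Dnajb4, Dnajc3, Hsp90aa1 and Sec24d kept it in 1 and Edem2 in 0. Without scramble replicate 1 or 2 there were 13 and 4 of the 19 still called, without knockdown replicate 1, 2 or 3 there were 7, 5 and 16, and with library totals 11. All 19 kept their direction in those 6 fits.

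**Figure D5:**
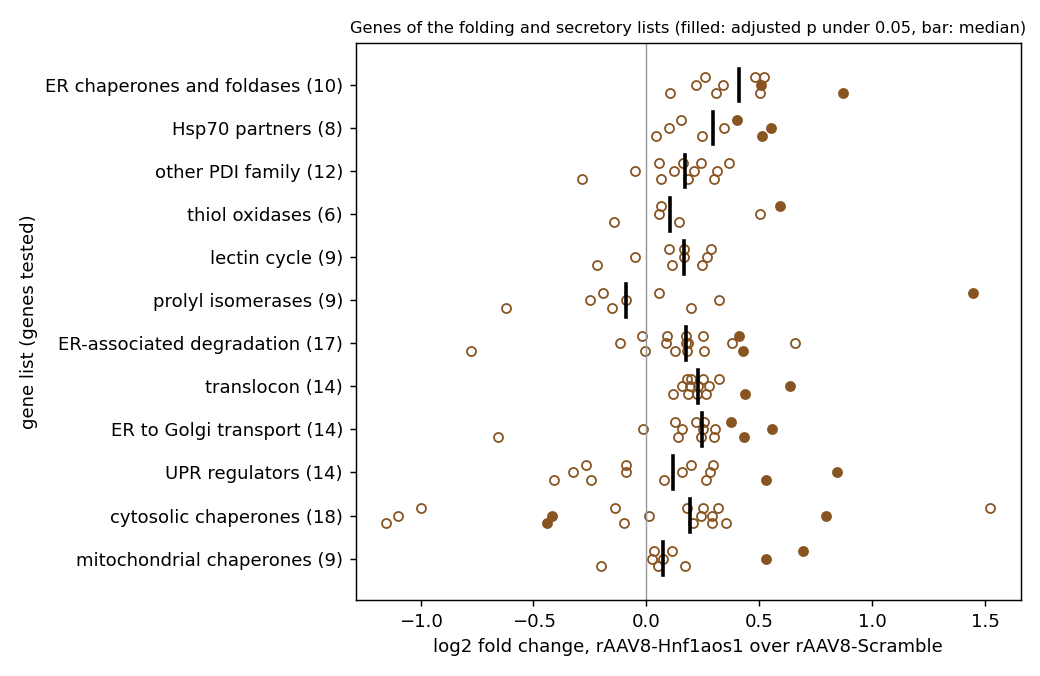
Log2 fold change (knockdown over scramble) of each gene tested in 12 lists, the 10 genes on the top line, with filled points for an adjusted p under 0.05 and bars for the median. The medians run from −0.09 in the prolyl isomerases to 0.41 in the 10 ER chaperones and foldases, and the points of the translocon list lie all above 0.

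The ERSE was also looked for over all genes, a search made after the values of the 10 were known and given as a description. Of the 37 genes with an exact match, 21 were tested, 5 of them among the 10. The 5 of the 10 with a match had log2 fold changes of 0.22 to 0.87 (median 0.51), and both genes called were among them. The 4 whose windows held no match had 0.10 to 0.50 (median 0.28). These ranges overlap.

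Among the 16 tested genes outside the 10 that held an ERSE, 10 were above 0, against 49.9% of all genes. In this set 1 was called higher, against 3.09% of all genes, and the median was 0.07. Of the 16, 5 belonged to the lists above (Canx, Derl3, Dnajc3, Ero1b and Syvn1) and all 5 were above 0, from 0.14 to 0.66, Dnajc3 being the one called. The membrane lectin chaperone gene Canx had 0.17 (standard error 0.0991, adjusted p = 0.340 from edgeR) with no overlap between the groups. The other 11 lay on both sides of 0, with 5 above it. Of them, named after their values were seen, the acetyl-CoA carboxylase gene Acacb had −0.19 and Spats2l had 2.98, the largest value of the 16 (standard error 0.674, adjusted p = 0.0698 from edgeR), without overlap between its groups but not called.

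Liver samples can hold secretory cells other than hepatocytes, so markers of 10 cell types were counted. Of 8 macrophage and Kupffer cell markers 2 rose, Clec4f by 0.44 and Adgre1 by 0.41 on the log2 scale (adjusted p = 0.0327 and 0.0485 from edgeR), and all 8 were above 0. The median of these markers was 0.43, against 0.41 for the 10 genes. An unadjusted edgeR p under 0.05 was found for 7 of the 8 (12.0% of all genes, higher). In 7 the groups did not overlap (15.2% of all genes). Their summed normalized counts were 2913 to 3532 in the scramble and 3714 to 4776 in the knockdown libraries, without overlap. This list thus separated the groups as the ER chaperones did, and its part in their change was not tested. Plasma cell markers, from a cell type with a large ER, summed to 238 to 709 in the scramble and 307 to 654 in the knockdown libraries, and 3 of the 8 passed the filter, with 0 called and 0 at an unadjusted p under 0.05.

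Pancreatic acinar markers summed to 82.5 to 102 normalized counts in the scramble and to 102 to 161 in the knockdown libraries, mostly of Cela1 (0.52, adjusted p = 0.141 from edgeR), the only 1 of 7 tested, while Cela3b and Pnlip were at 0 in every library. Neutrophil markers summed to 3.29 to 7.70 in the scramble and 16.3 to 37.1 in the knockdown libraries, without overlap, 0 of the 5 passed the filter, and Ly6g was at 0 in every library. The sums of bile duct markers, 578 to 688 in the scramble and 833 to 2542 in the knockdown libraries, did not overlap either, the highest being knockdown replicate 1, and 4 of the 5 were tested, with 3 above 0. The neutrophil and bile duct sums thus separated the groups, as the ER chaperones did, but differed from them inside the knockdown group. Knockdown replicates 1 to 3 had bile duct sums of 2542, 916 and 833 and neutrophil sums of 23.8, 37.1 and 16.3. The 10 genes summed to 82877, 79114 and 79914 normalized counts there. The bile duct genes ran from −1.03 to 1.79 on the log2 scale, with 0 at an unadjusted edgeR p under 0.05. The part of these cells was not tested. Muscle markers ran from 393 to 854 in the knockdown and from 827 to 3095 in the scramble libraries, and stellate cell, endothelial and lymphocyte markers overlapped between the groups. By edgeR, DESeq2 and voom 0 markers of the 8 types other than macrophages and hepatocytes were called. Of the 30 tested, 4 had an unadjusted edgeR p under 0.05, and 23.4% of all genes had one under 0.0497.

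The genes outside all lists whose level followed the 10 most closely were found by Pearson's r between their log2 CPM (counts scaled to library size) and the mean centred log2 value of the 10, over the 6 libraries and among 6537 genes of sufficient level. They were Atp2b1, a plasma membrane calcium pump (0.995), Fbxo11, a ubiquitin ligase subunit (0.992), Mup20, a major urinary protein secreted by hepatocytes (0.990), Tgfa, a growth factor (0.981), and Osbp, an oxysterol-binding protein (0.979). In all 5 the groups did not overlap, and edgeR and voom called 0 with 3 at an unadjusted p under 0.05 in each. DESeq2 called Mup20. The mean of the 10 itself separated the groups, so the choice by r favoured genes without overlap and with small p-values. Mup20 spanned 80845 to 152559.8 normalized counts with the scramble hairpin and 172224 to 210659 after knockdown, a log2 fold change of 0.75 with a standard error of 0.211 and an edgeR adjusted p of 0.0698. It belongs to a family of similar Mup genes, and reads that map to more than 1 gene were not counted, so its level is uncertain. Within the 10, r with the mean of the 10 was 0.65 for Dnajb9 and 0.87 to 0.99 for the other 9. These r values join the difference between the groups with the order of libraries inside them, and the 10 contribute to their own mean.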

How the data were processed

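Liver RNA-seq libraries of 6 mice, 3 per group by the sample labels, were analysed. The authors trimmed the read pairs, aligned them with STAR (GRCm38 in the study's methods, GRCm39 in the submitters' processing notes) and counted uniquely mapped exonic reads with featureCounts; the strand setting and annotation release are not given in the sources used here. The methods name a stranded poly(A) library kit, the labels depletion of ribosomal RNA. The deposited raw counts were used for the tests, and the deposited TPM values, whose computation is not described, for levels per length. Normalized counts and a table of the authors' log2 fold changes and p-values were not used.

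The 92 spike-in rows were removed. edgeR 4.0.16 (R 4.3.3) was run with TMM, filterByExpr and a robust quasi-likelihood fit on group, with Benjamini-Hochberg adjustment over 16327 genes. DESeq2 1.42.0, limma 3.58.1 (voom), other scalings and filters, the replicate number as a block and each library left out were alternatives. The members and lists were chosen with earlier results of these data known. Named are all members, the called genes of each list (at most 4, or else the smallest p) and called markers. The 5 most alike genes of at least 4 on the log2 CPM scale are also named. Genes with an ERSE, and some uncalled genes of the other lists, were added later. The replicates are described as separate mice, so p-values measure the spread between mice. No pair of libraries of a group was alike enough to be a repeat (chi-square per gene 7.73 to 31.9, against about 1 from sampling alone). Scripts were tested on simulated data. Gene positions come from GENCODE, promoters from RefSeq, both matched by symbol.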

Additional observations from a re-analysis of the deposited data

How the results depend on the processing

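Of the 10 genes, edgeR called 2, and as many with DESeq2's size factors, library totals, a minimum mean of 50 counts or limma's voom. DESeq2 called 5, spike-in library sizes 9, no filter on low counts 6, and the fits that left out 1 library 0 to 5. Over all genes 1032 were called, 3394 with spike-in library sizes, 1902 without a filter, and 103 to 1881 with a library left out. Of the 132 genes of the lists outside the 10, 19 were called, 72 with spike-in library sizes, 11 with library totals, 12 with a minimum mean of 50 counts, and 2 to 24 with a library left out. The causes were not tested, apart from the changes in genes or samples that these settings make themselves. Dnajb9 changed sign without scramble replicate 2 (−0.14) and without knockdown replicate 1 (−0.13), reaching 0.44 without scramble replicate 1, and the other 9 genes stayed above 0 in every fit; in TPM all 10 had the same direction.

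With the replicate number as a block, 4 of the 10 were called (Creld2, Hsp90b1, Hspa5 and Manf), 878 of all genes and 17 of the list genes. The deviations of same-numbered libraries correlated by −0.023 to 0.023, so the replicate block rests on a shared number only and shows no pairing. With 3 libraries per group, the smallest log2 fold change called among the 10 and the list genes was 0.38 (Sec24d).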
